A study of Mus musculus with 2 samples.

Results

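The genes followed here are 40 genes of the cell cycle, taken by gene symbol and grouped by their known role, of which 16 act in the G1/S transition and in DNA replication and 24 in G2 phase and mitosis (G2/M). Of these, 37 had at least 1 probe on the array, with 46 probes in all, out of 19084 genes and 26423 probes. For Ccnb1, Cdc20 and Pcna, no expression value was analysed here. The cells came from spleens of untreated, naïve NOD-SCID mice at 6 to 8 weeks of age, whose scid mutation in Prkdc blocks the formation of T and B cells, and were sorted at once, without a culture step. Z(+) cells are taken here as those that bind the Zfra peptide, and Z(-) cells as those that do not, and both fractions share strain, age and tissue. Each fraction gave 1 total RNA sample, read on 2 technical arrays, and the number 8 in the design text is read as spleens, which would make each sample a pool of mice. Hyal2, which encodes the Zfra receptor that defines Z cells, gave 608 intensity units in Z(-) against 670.1 in Z(+), a log2 difference of 0.14. As each fraction has 1 sample, differences are described without tests.

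Cells that enter division switch on their genes in waves. At the G1/S transition, E2F factors released from RB proteins turn on cyclin E and the machinery that licenses and copies DNA. Later, the MuvB complex with B-MYB and FOXM1 turns on the cyclins, kinases and motors of mitosis through a promoter element called CHR. In resting cells the DREAM complex keeps both waves silent. In the spleen of adult mice, dividing cells include blood cell precursors, and many mature leukocytes there do not divide.

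Cell cycle transcripts were lower in Z(+) than in Z(-) in both waves. Of the 37 measured genes, 17 had an intensity at least 2-fold lower in Z(+), where 6.27% of all 19084 genes did. None was at least 2-fold higher, against 2.44% of all genes. Counts at 2-fold in the smaller groups below are to be read against these shares. With a pseudocount of 50 added to each intensity, 10 of the 37 were at least 2-fold lower, as were 641 of all genes. At a threshold of 1.5-fold, 24 were lower and 0 higher, against 13.5% and 7.89% of all genes. In all, 33 of the 37 were lower by some amount, against 45.7% of all genes; Mki67, whose probes went opposite ways, counts here by their mean. The median log2 difference, Z(+) minus Z(-), was -0.89, which is 1.85-fold lower, while the median over all genes was 0.03. The largest difference was that of Gmnn, 4.33-fold lower, and the genes that were not lower were Cdk2, Nuf2, Cdk1 and Ccne2. Because RNA came from whole fractions, fewer dividing cells in Z(+) and less of these transcripts per cell cannot be told apart.

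The recovered spread between technical arrays was small beside most of these differences, though wider for dim probes. Values under 2000 could be split into the 2 arrays whose mean was deposited, for 99.7% of probes in Z(-) and 99.2% in Z(+). Where several splits fitted a value, only a split with arrays close together was kept, so the method favours a small spread. Between intensities of 100 and 400 the arrays differed by a median of 1.04-fold in Z(-) and 1.08-fold in Z(+). In the dimmer range compared, under 100, the medians were 1.06-fold and 1.16-fold. That range had a lower limit and left out probes as dim as those of Cdc6 and Cdk1. The least alike arrays there differed by more than 1.47-fold in Z(-) and 2.06-fold in Z(+). Of the 46 cell cycle probes, 43 could be split in both samples. In 35 of the 43, both arrays of Z(+) lay below both arrays of Z(-), which held for 31.9% of all split probes. In 6 both arrays of Z(+) lay above, against 39.2%, and in 2 the arrays overlapped. In 18 of the 43, each of the 4 pairings of a Z(+) array with a Z(-) array gave a value at least 2-fold lower in Z(+), which held for 4.74% of all split probes. These arrays share 1 RNA sample per fraction, so they measure the hybridization and not the sort or the mice.

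**Figure D1:**
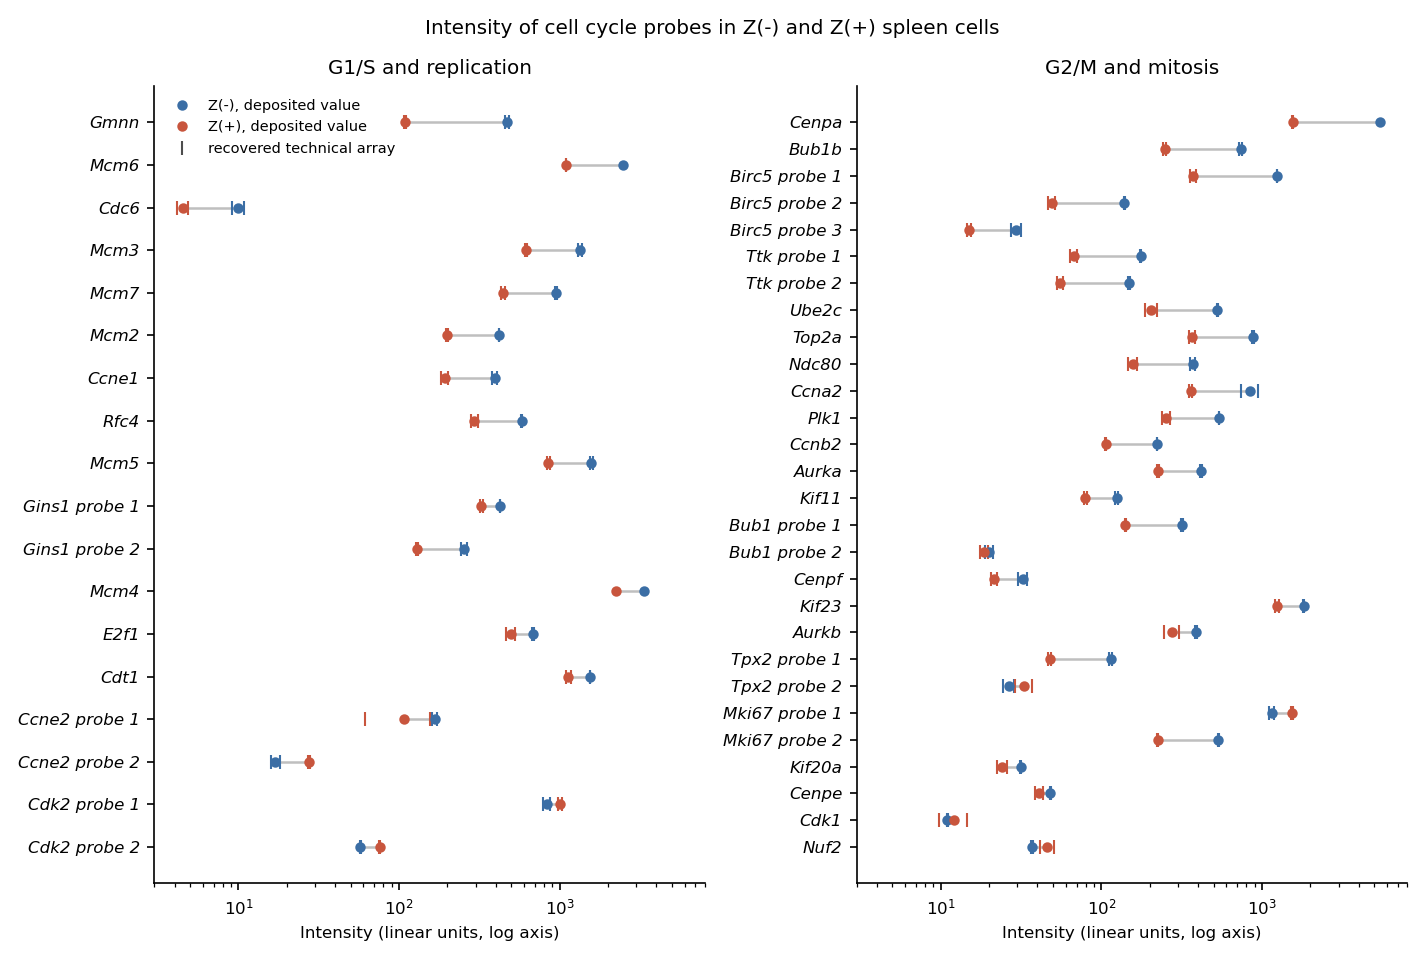
Intensity of each of the 46 cell cycle probes in Z(-) (blue) and Z(+) (red), on a log axis in linear intensity units. Dots are the deposited values and ticks the technical arrays recovered from them, where both could be recovered under an intensity of 2000; probes of a gene are numbered from the brightest, and genes are ordered by their difference. The red dot lies left of the blue dot for 39 of the 46 probes.

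All 6 subunits of the MCM helicase, the ring that unwinds DNA ahead of the fork, had a lower intensity in Z(+), and 4 of them were at least 2-fold lower. Mcm6 read 2491 in Z(-) against 1089 in Z(+), Mcm3 1335 in Z(-) against 617 in Z(+), and Mcm7 951 in Z(-) against 442 in Z(+). Mcm2 was 2.10-fold lower at 419 in Z(-) against 199 in Z(+). The differences of these 4 subunits lay close together, between -1.19 and -1.07 on the log2 scale. Mcm5 had 1576 in Z(-) against 851 in Z(+), and Mcm4 3339 in Z(-) against 2250.2 in Z(+), the smallest difference of the 6 at -0.57. The technical arrays of Mcm3 stood at 1370.2 and 1300.1 in Z(-) against 626 and 607 in Z(+), and those of Mcm2 at 419.8 and 418 in Z(-) against 197 and 201 in Z(+). They did not overlap between fractions for any of the 4 subunits whose values could be split in both samples.

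Genes that load the helicase onto origins differed from each other. Gmnn encodes geminin, which binds CDT1 and blocks a further round of loading. Its probe read 472 in Z(-) against 109 in Z(+), a log2 difference of -2.11, with arrays of 485 and 459.6 in Z(-) against 107 and 111 in Z(+). Cdt1, which brings the helicase to the origin, was closer between fractions at 1547 in Z(-) against 1132 in Z(+). Cdc6, the partner of CDT1 in this step, was 2.23-fold lower, but its probe was dim at 9.99 in Z(-) against 4.49 in Z(+), and with a pseudocount of 50 the difference was -0.14. Gmnn thus stood 4.33-fold lower and Cdt1 1.37-fold lower in the same samples.

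At the fork, Rfc4, a subunit of the complex that loads the PCNA clamp, had 581 in Z(-) against 295 in Z(+), just under 2-fold. Gins1, a subunit of the GINS complex that works with the helicase, was read by a pair of probes, of which the brighter had 426 in Z(-) against 326 in Z(+) and the other 255 in Z(-) against 129.6 in Z(+). The log2 differences were -0.39 and -0.98.

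Among the regulators of S phase entry, cyclin E1 was lower and its kinase was not. Ccne1 had 393 in Z(-) against 192 in Z(+), with arrays of 407 and 379.8 in Z(-) against 182 and 203 in Z(+). Cdk2, the kinase that cyclin E activates, was higher in Z(+) on both of its probes, at 830.1 in Z(-) against 1009.9 in Z(+) and at 57.5 in Z(-) against 76.0 in Z(+), and all 4 pairings of arrays gave a higher value on each probe. This was 1.27-fold over both probes and thus well under 2-fold. E2f1, the transcription factor that turns on this wave, had 686 in Z(-) against 495 in Z(+). Ccne2, the other cyclin E, gave opposite signs on its probes, described with the probe comparison.

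Among G2/M genes, the group of the spindle checkpoint and the anaphase-promoting complex had the lowest median of the 10 groups by role, -1.39 on the log2 scale over 4 genes. A separate list of 23 checkpoint, kinetochore and chromosome separation genes, described below, had a median of -0.37. The checkpoint holds anaphase back until every chromosome is attached. Bub1b, which encodes BUBR1, read 736 in Z(-) against 247 in Z(+), with arrays of 752 and 720.2 in Z(-) against 241 and 253 in Z(+). Ttk, the kinase MPS1 at the top of the checkpoint, had 175 in Z(-) against 67.4 in Z(+) on one probe and 149 in Z(-) against 55.6 in Z(+) on the other, and Bub1 had 317 in Z(-) against 141 in Z(+) on its brighter probe. Ube2c, the ubiquitin-conjugating enzyme of the anaphase-promoting complex, was 2.58-fold lower at 528 in Z(-) against 205 in Z(+). Of the 4 measured genes of this group, 3 were at least 2-fold lower. Bub1, averaged over its bright and its dim probe, was 1.56-fold lower.

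Genes of the centromere and kinetochore differed by unequal amounts, and 2 of the 5 members were at least 2-fold lower. Cenpa, the histone H3 variant that marks centromeres, had 5450.4 in Z(-) against 1554 in Z(+). It was 3.51-fold lower, the largest difference among the measured G2/M members. Ndc80 and Nuf2 encode partners in the NDC80 complex, which grips spindle microtubules. Ndc80 had 371 in Z(-) against 156 in Z(+), while Nuf2 was dim and slightly higher in Z(+) at 37.0 in Z(-) against 46.1 in Z(+). Spc24 and Spc25, the remaining subunits of that complex, had 128 in Z(-) against 44.9 in Z(+) and 737 in Z(-) against 318 in Z(+). Spc24, averaged over 2 probes, was dimmer than the median gene by its mean log2 intensity. Thus 3 of the 4 subunits were at least 2-fold lower, against 6.27% of all genes. These subunits were compared after their values were seen. The kinetochore proteins Cenpe, a motor, and Cenpf were dim, at 48.0 in Z(-) against 41.1 in Z(+) and at 32.5 in Z(-) against 21.5 in Z(+).

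The measured mitotic cyclins and the mitotic kinases Plk1, Aurka and Aurkb were lower in Z(+). Ccna2, cyclin A2, had 839 in Z(-) against 359 in Z(+), although its Z(-) arrays lay apart at 941 and 737. Ccnb2, cyclin B2, had 223 in Z(-) against 106 in Z(+), with arrays of 223 and 223 in Z(-) against 107 and 105 in Z(+). The probe of Cdk1, the kinase of both cyclins, was dim at 11.0 in Z(-) against 12.1 in Z(+) and its arrays overlapped, so no direction is given for it. Plk1, the kinase that drives mitotic entry and spindle assembly, had 539.5 in Z(-) against 251 in Z(+). Aurka, the Aurora kinase of the spindle poles, had 416 in Z(-) against 225 in Z(+), and Aurkb, the Aurora kinase of the chromosomal passenger complex, 386 in Z(-) against 274 in Z(+). Birc5, which encodes survivin of that same complex, was lower on each of its 3 probes, the brightest at 1241 in Z(-) against 373 in Z(+).

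Top2a, the topoisomerase that untangles replicated DNA, had 880.4 in Z(-) against 368 in Z(+), with arrays of 889 and 872 in Z(-) against 352 and 384 in Z(+). The motor genes were closer between fractions and none of the 3 was at least 2-fold lower. Kif11, which pushes spindle poles apart, was 1.56-fold lower and Kif23, a motor of cytokinesis, 1.47-fold lower at 1824 in Z(-) against 1240.5 in Z(+). Kif20a, another motor of cytokinesis, had 31.5 in Z(-) against 24.1 in Z(+).

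Many promoters of these genes carry the elements named above, and a few windows of members at least 2-fold lower are shown here as examples, with and without the letters, chosen after both were seen. RefSeq promoter windows of the GRCm38.p6 build, from 250 bases before to 50 bases after the start of transcription, were matched for 32 of the 40 genes, with 33 windows. Of these 32 genes, 29 were measured, and the others, Ccnb1, Cdc20 and Pcna, count in the motif shares without an expression value. Letters searched on both strands were TTTGAA for the CHR element, CCAAT for the CCAAT box, and TTTCCCGC, TTTGGCGC, TTTCGCGC or TTTGCCGC for E2F. Overlapping matches were counted. In the lines below, capitals mark every such match on either strand. A match is a description of letters and not evidence that a factor binds. The first pair are the windows of the helicase genes Mcm6, chr1:128359656-128359955 (-), and Mcm3, chr1:20820263-20820562 (-), which hold E2F matches and no CHR match.
Mcm6: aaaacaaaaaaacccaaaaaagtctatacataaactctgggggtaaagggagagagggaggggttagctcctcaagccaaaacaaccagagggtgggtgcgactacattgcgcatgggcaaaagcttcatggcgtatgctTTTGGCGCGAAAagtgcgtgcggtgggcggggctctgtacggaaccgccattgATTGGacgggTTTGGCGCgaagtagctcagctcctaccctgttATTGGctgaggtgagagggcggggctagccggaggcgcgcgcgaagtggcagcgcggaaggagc
Mcm3: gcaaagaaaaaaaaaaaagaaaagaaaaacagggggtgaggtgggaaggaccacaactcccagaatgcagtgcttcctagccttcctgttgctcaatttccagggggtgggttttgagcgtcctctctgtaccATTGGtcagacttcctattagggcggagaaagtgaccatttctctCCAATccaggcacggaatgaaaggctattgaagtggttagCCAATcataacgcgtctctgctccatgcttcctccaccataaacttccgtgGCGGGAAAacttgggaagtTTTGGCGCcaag

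The next are windows of G2/M genes that were at least 2-fold lower in Z(+), Cenpa at chr5:30666636-30666935 (+), Bub1b at chr2:118597961-118598260 (+), Plk1 at chr7:122159185-122159484 (+), Ccnb2 at chr9:70421505-70421804 (-) and Top2a at chr11:99024140-99024439 (-). These were chosen because each holds at least 1 CHR match, at least 1 CCAAT box and no E2F match.
Cenpa: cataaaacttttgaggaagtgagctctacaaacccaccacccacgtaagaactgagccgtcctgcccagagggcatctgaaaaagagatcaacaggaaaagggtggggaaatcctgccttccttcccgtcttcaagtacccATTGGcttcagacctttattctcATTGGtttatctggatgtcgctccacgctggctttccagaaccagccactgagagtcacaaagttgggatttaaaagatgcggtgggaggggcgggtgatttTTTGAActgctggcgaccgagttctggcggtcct
Bub1b: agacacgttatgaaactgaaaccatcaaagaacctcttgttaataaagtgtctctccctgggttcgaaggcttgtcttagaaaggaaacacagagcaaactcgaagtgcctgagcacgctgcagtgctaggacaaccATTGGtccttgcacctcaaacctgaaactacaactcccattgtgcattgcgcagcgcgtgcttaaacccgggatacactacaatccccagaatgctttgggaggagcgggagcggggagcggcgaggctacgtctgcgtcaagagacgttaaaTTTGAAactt
Plk1: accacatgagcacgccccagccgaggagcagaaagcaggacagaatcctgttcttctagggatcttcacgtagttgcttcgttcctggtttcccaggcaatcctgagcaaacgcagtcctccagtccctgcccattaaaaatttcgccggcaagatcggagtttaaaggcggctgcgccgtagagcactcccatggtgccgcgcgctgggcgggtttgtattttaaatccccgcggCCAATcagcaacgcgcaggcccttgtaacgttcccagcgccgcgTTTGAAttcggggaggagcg
Ccnb2: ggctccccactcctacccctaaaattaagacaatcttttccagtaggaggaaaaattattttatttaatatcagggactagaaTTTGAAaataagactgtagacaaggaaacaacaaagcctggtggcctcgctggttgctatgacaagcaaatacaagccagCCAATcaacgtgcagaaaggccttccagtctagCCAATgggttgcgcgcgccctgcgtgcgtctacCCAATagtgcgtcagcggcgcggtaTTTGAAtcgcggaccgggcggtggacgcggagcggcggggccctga
Top2a: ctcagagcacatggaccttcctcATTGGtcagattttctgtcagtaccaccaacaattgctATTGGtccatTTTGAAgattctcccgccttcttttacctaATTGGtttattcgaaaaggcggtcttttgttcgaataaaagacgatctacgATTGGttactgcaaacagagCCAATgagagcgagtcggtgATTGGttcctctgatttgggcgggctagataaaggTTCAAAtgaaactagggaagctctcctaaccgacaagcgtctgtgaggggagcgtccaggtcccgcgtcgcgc

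The last pair are windows of G2/M genes that were at least 2-fold lower but do not hold both elements. Ndc80, at chr17:71526808-71527107 (-), has a CHR match and no CCAAT box, and Birc5, at chr11:117848987-117849286 (+), lower on all its probes, has no match of any kind.
Ndc80: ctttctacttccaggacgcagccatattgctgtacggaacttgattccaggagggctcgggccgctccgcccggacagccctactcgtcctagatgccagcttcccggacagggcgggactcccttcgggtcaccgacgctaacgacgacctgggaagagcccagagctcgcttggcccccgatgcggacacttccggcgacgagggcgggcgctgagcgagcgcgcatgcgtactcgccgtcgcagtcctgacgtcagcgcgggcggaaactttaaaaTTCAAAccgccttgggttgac
Birc5: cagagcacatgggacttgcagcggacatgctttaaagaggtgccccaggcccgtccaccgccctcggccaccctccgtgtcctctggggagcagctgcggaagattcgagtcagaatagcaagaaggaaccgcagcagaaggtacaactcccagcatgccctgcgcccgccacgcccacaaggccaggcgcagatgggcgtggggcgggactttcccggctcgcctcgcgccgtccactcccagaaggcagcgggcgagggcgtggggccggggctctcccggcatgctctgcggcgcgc

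The CHR letters were found in 15 of 20 windows of G2/M genes and in 1 of 13 of G1/S genes, against 17.9% of all 32851 windows. The E2F letters were found in 7 of 13 windows of G1/S genes and 1 of 20 of G2/M genes, against 2.26% of all windows. CCAAT boxes were found in 17 of 20 G2/M and 8 of 13 G1/S windows, against 37.4%. Among G1/S genes at least 2-fold lower, the window of Mcm2 holds CHR and CCAAT matches but no E2F match. That of Ccne1 holds none of them. Of the genes that were not lower, the window of Cdk1 holds CHR, CCAAT and E2F matches, that of Cdk2 CCAAT and E2F matches, and that of Nuf2 none of them.

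Whether G1/S or G2/M genes differed more was not the same under all settings. Over all measured genes, the median log2 difference was -0.98 for the 15 G1/S genes and -0.76 for the 22 G2/M genes. At least 2-fold lower were 7 of the 15 and 10 of the 22. Of the G2/M genes, 10 had a mean log2 intensity under the median of all genes, against 2 of the G1/S genes. Over the 13 and 12 genes at or above it, the medians were -0.98 and -1.16, and the order of the waves was turned. It was also turned with the brightest probe of each gene, where the G1/S median lay 0.11 above the G2/M median. No difference between the waves can be stated from these values.

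Bright members differed more between fractions than dim ones. Of the 25 members at or above the median brightness, 14 were at least 2-fold lower, with a median of -1.07, where 6.14% of all genes this bright were. None was at least 2-fold higher, against 2.12%, and 24 of the 25 were lower by some amount, against 49.8%, Cdk2 being the exception and Mki67 counting by the mean of its probes. Of the 12 dimmer members 3 were, with a median of -0.53, against 6.4% of all dimmer genes. The dimmer members were Cdc6, Ccne2, Cdk1, Nuf2, Cenpe, Cenpf, Kif20a, Kif11, Bub1, Tpx2, Birc5 and Ttk. Brightness was taken as the mean log2 intensity of both samples, for members and all genes alike, so a gene can pass through its Z(-) value. Gmnn and Ccnb2, at 109 and 106 in Z(+), lay there below the median gene of 120.9 and passed through Z(-). Brightness depends on the probe as well as on the transcript, and no background level is given with the deposited values.

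**Figure D2:**
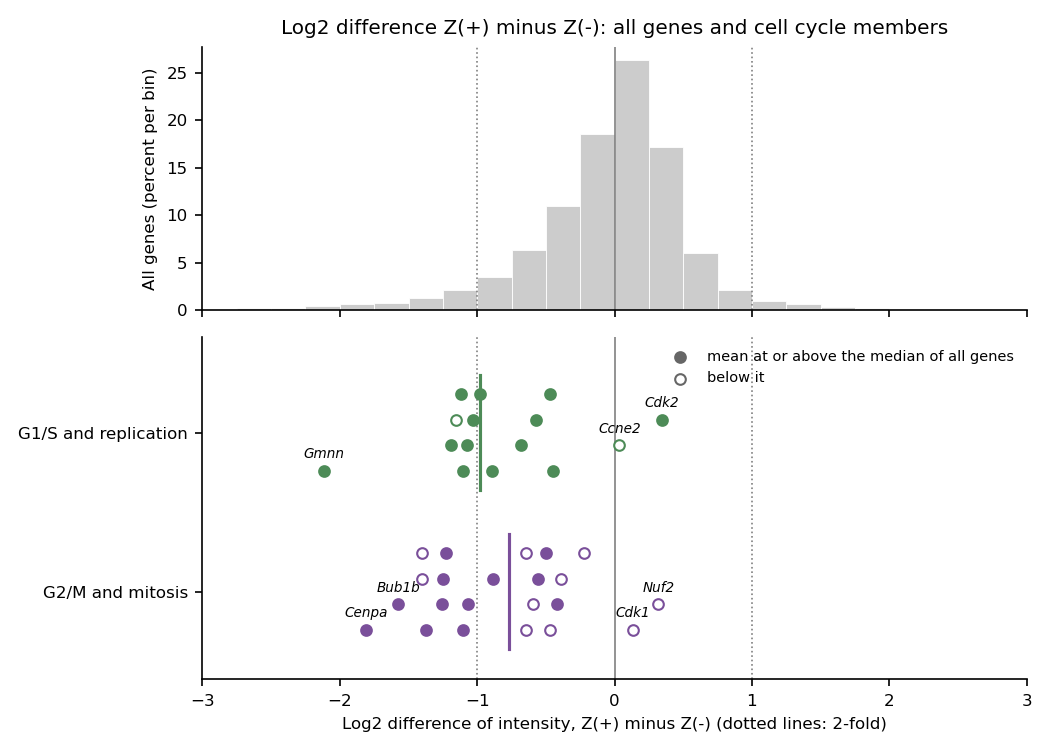
The upper panel shows the percent of all 19084 genes in each bin of 0.25 of the log2 difference, Z(+) minus Z(-), between -3 and 3; the lower panel shows each measured cell cycle gene, with bars at the medians of -0.98 for G1/S and -0.76 for G2/M genes. Filled points are genes at least as bright as the median gene, open points are dimmer, and the vertical spread has no meaning; most members lie left of the peak of all genes.

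Probes of 1 gene did not always agree. Of the 8 members with several probes, 5 had the same sign on all of them and 3 had both signs. Mki67, which encodes the proliferation antigen Ki67, had a pair of bright probes that went opposite ways. One had 1152 in Z(-) against 1535 in Z(+), with arrays of 1192 and 1111 in Z(-) against 1561 and 1509.7 in Z(+). The other had 536 in Z(-) against 224 in Z(+), with arrays of 541 and 531 in Z(-) against 222 and 226 in Z(+). Neither probe's arrays overlapped between fractions, so the disagreement was larger than the technical spread, and no direction is given for Mki67.

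Tpx2, the activator of Aurora A, was 114 in Z(-) against 47.5 in Z(+) on its brighter probe and 26.5 in Z(-) against 33.1 in Z(+) on the other. Ccne2 was 167 in Z(-) against 108 in Z(+) on its brighter probe and 17.0 in Z(-) against 27.5 in Z(+) on the other, and the Z(+) arrays of the brighter probe lay far apart at 61.0 and 155. In both genes the brighter probe was lower in Z(+) and the dim one higher. The second probe of Bub1 was dim with overlapping arrays, at 18.5 in Z(+) and a log2 difference of -0.11. The paired probes of Ttk gave nearly the same log2 difference, -1.38 and -1.42, and those of Birc5 gave -1.74, -1.50 and -0.97 from the brightest to the dimmest. Over all 2104 genes with exactly 2 probes, the log2 differences of paired probes differed with an SD of 0.836, and 61.6% of the pairs had the same sign. Over the 702 of these with both probes bright, the SD was 0.635 and 69.1% had the same sign. The 29 members with 1 probe have no such check.

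**Figure D3:**
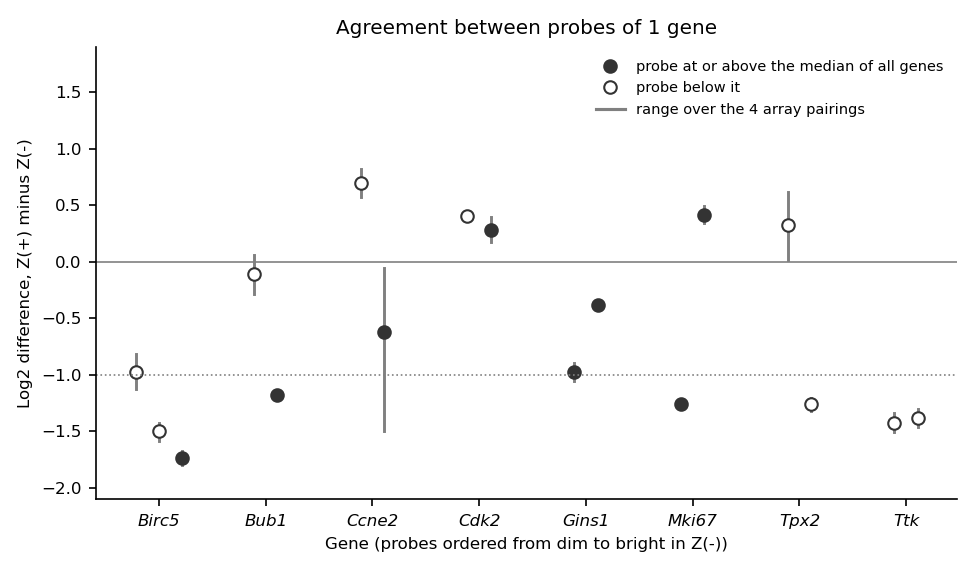
Log2 difference, Z(+) minus Z(-), of each probe of the 8 members with several probes, ordered from dim to bright within a gene. Lines span the 4 pairings of technical arrays; filled points are probes at least as bright as the median gene, and the probes of Ccne2, Mki67 and Tpx2 lie on both sides of 0.

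Other genes of the cell cycle, in 7 lists that hold none of the 40, leaned the same way. In Z(+), 37 of the 140 measured genes lay at least 2-fold lower and 1 at least 2-fold higher, and their median was -0.45, to be read against the shares of all genes given above. The 32 other G2/M genes had a median of -0.74, and 11 of them were at least 2-fold lower. Cdca3, a trigger of mitotic entry, had 1155 in Z(-) against 306 in Z(+), Kif22, a chromosome-arm motor, 1228 in Z(-) against 369 in Z(+), and Kif20b, a motor of cytokinesis, 336 in Z(-) against 127 in Z(+). The 9 genes around the switch that activates CDK1 had a median of -0.97, with Ccnf, cyclin F, at 542 in Z(-) against 189 in Z(+) and Cdc25b, a phosphatase that activates CDK1, at 239 in Z(-) against 103 in Z(+). Pkmyt1, a kinase that restrains CDK1, was lower as well, at 317 in Z(-) against 162 in Z(+). Of 23 genes of the checkpoint, the kinetochore and chromosome separation, 5 were at least 2-fold lower. Their median was nearer to 0, at -0.37 over all 23 and -0.20 over the 14 bright ones. Among the 5 were Cenph, a kinetochore subunit, at 618 and 180.5 and the checkpoint protein gene Mad2l1 at 619.9 and 239 in Z(-) and Z(+).

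The 29 other G1/S and S phase genes had a median of -0.47, with 8 at least 2-fold lower. Uhrf1, which keeps DNA methylation through replication, had 673 in Z(-) against 253 in Z(+), Prim1, a primase subunit, 445 in Z(-) against 179.5 in Z(+), and Cdca7 1504 in Z(-) against 644 in Z(+). Of 18 genes of origins, helicase loading and clamp loading, 5 were at least 2-fold lower, with a median of -0.36. Subunits of 1 complex could differ: Gins2 was 3.32-fold lower at 455 in Z(-) against 137 in Z(+), while Gins4, named after its value was seen, had 3141 in Z(-) against 2895 in Z(+). Cdc45, which completes the active helicase with GINS, was 2.40-fold lower, and Rfc3, a clamp loader subunit, 2.01-fold.

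The lists of G1 regulators and of the RB, E2F, DREAM and MuvB group had medians nearer to 0 than the other 5 lists. Of 11 cyclins D, their kinases and inhibitors, none was at least 2-fold lower, Cdk6 was at least 2-fold higher, and the median was -0.12. Ccnd1, cyclin D1, came nearest to being 2-fold lower at 843 in Z(-) against 432 in Z(+). Cdkn1b and Cdkn2c, which encode the inhibitors p27 and p18, had 917 in Z(-) against 672 in Z(+) and 640.3 in Z(-) against 459 in Z(+). The 18 regulators of the RB, E2F, DREAM and MuvB group had a median of -0.03 and split. The transcription factor genes Foxm1, at 399 in Z(-) against 124 in Z(+), E2f8, at 757 in Z(-) against 341 in Z(+), and Myc, at 457 in Z(-) against 206 in Z(+), were at least 2-fold lower, as were E2f7 and Lin52. Lin54 and Rbl2, which encode subunits of the DREAM complex, had 396 in Z(-) against 409 in Z(+) and 989 in Z(-) against 1003 in Z(+). E2f7, Lin52, Lin54 and Rbl2 were named after their values were seen.

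Markers of several cell types moved along with the cell cycle genes, and their part in the result was not tested. Lower in Z(+) were most markers of NK cells, mast cells and basophils, T cells, granulocyte precursors, neutrophils and progenitors. Markers of macrophages were higher. Counts at 2-fold are to be read against the shares of all genes given above. For granulocyte precursors, 6 of 6 markers were at least 2-fold lower, with a summed intensity of 25897 in Z(-) against 6233 in Z(+), among them Mpo at 7509 in Z(-) against 2154 in Z(+) and Elane at 1019 in Z(-) against 278 in Z(+). Of 7 markers of stem and progenitor cells, 3 were, with a sum of 2077 in Z(-) against 946 in Z(+), and 5 were lower by some amount. Kit and Cd34 had 842 in Z(-) against 268 in Z(+) and 272 in Z(-) against 127 in Z(+). Gata1 and Gfi1b, named after their values were seen, were dim and higher in Z(+). They had 39.5 in Z(-) against 45.7 in Z(+) and 85.9 in Z(-) against 134.7 in Z(+). Of 10 markers of NK cells, 8 were at least 2-fold lower, with a sum of 52913 in Z(-) against 3895 in Z(+). Klrd1 and Klre1 were 22.6-fold and 24.1-fold lower. The exceptions, named after their values were seen, were Eomes and Ncr1. Eomes was higher, at 661 in Z(-) against 898 in Z(+), and Ncr1 was dim at 5.50 in Z(-) against 5.52 in Z(+). Of 10 markers of mast cells and basophils, 8 were, with a sum of 39864 in Z(-) against 4587 in Z(+), and Mcpt8 and Prss34 were 24.3-fold and 20.2-fold lower.

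Of 8 markers of T cells 5 were at least 2-fold lower, with a sum of 12588 in Z(-) against 2071 in Z(+). Cd3e and Cd3d, chains of the T cell receptor complex, had 1333 in Z(-) against 593 in Z(+) and 9971 in Z(-) against 1128 in Z(+). Cd4 and Cd8b1, named after their values were seen, were dim and nearly equal. They had 36.5 in Z(-) against 40.1 in Z(+) and 74.0 in Z(-) against 71.3 in Z(+). Which cells these transcripts came from was not tested. Of 10 markers of neutrophils 5 were at least 2-fold lower, with a sum of 282186 in Z(-) against 178085 in Z(+). S100a8 was dim at 16.5 in Z(-) against 18.1 in Z(+), and S100a9 had 56286 in Z(-) against 45654 in Z(+). Ltf and Camp, named after their values were seen, had 61734.5 in Z(-) against 43340 in Z(+) and 60239 in Z(-) against 46111 in Z(+). These Z(-) values lay near the highest intensity of that sample, 65528. Whether a limit of the scanner narrowed such differences was not tested. No marker of erythroid cells was at least 2-fold lower, and the median of 9 was -0.39. Klf1 and Epor, genes of dividing erythroid precursors, were dim at 42.5 in Z(-) against 46.1 in Z(+) and at 30.5 in Z(-) against 51.5 in Z(+), and Rhag, named after its value was seen, was at the floor of 1 in Z(+). Of 10 markers of macrophages 7 were at least 2-fold higher and none lower, with a sum of 41585 in Z(-) against 76507 in Z(+), among them Mertk at 131 in Z(-) against 663 in Z(+), while Adgre1 had 8183 in Z(-) against 13093 in Z(+). Monocyte and B cell markers had medians of 0.09 and -0.02, with Csf1r at 33745 in Z(-) against 40487 in Z(+), Ccr2 at 2410.1 in Z(-) against 1978 in Z(+), Ms4a1 dim at 6.52 in Z(-) against 5.52 in Z(+) and Cd79a at 202 in Z(-) against 226 in Z(+). The measured cell cycle members, with a summed intensity of 28135 in Z(-) and 14227 in Z(+), had a median of -0.889. The granulocyte precursor, NK, basophil and T cell lists had medians further below 0. Those of the stem and progenitor list, -0.972, and of the neutrophil list, -0.893, were slightly lower than that of the members.

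**Figure D4:**
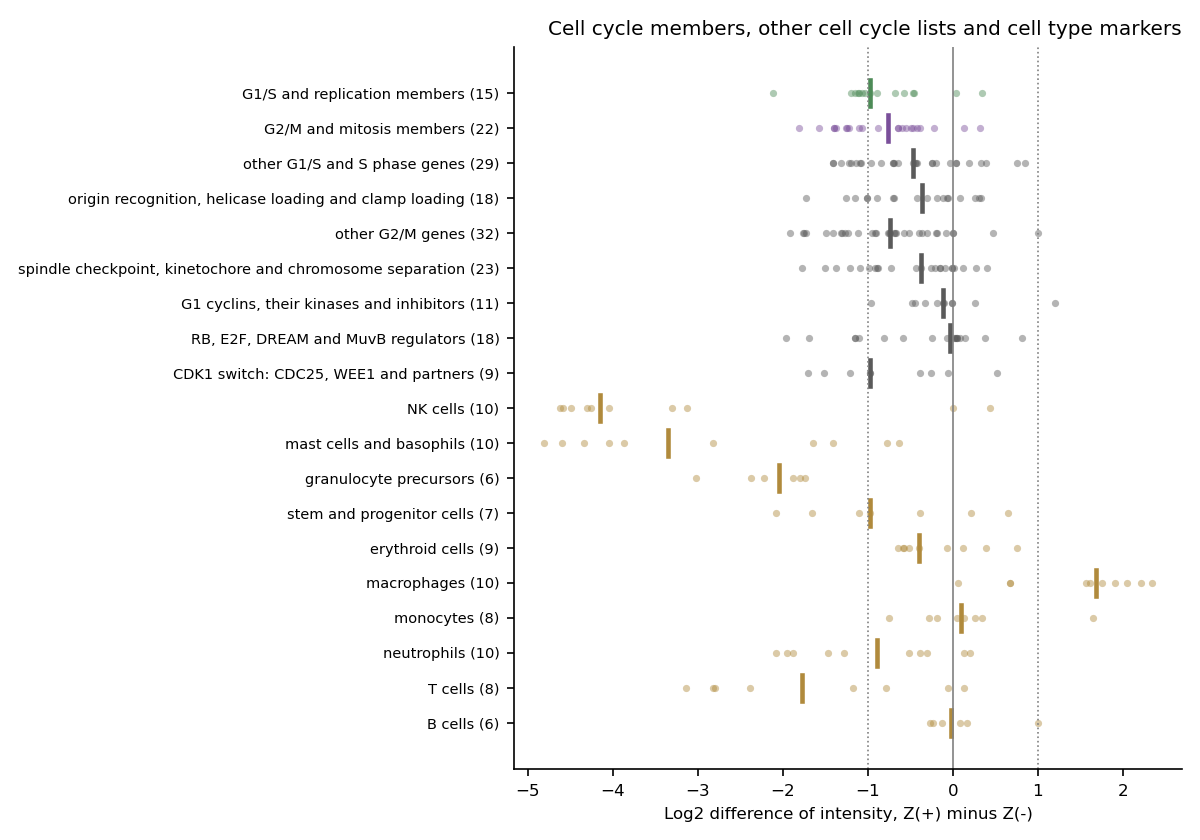
Log2 difference, Z(+) minus Z(-), of each measured gene (points) and the median of each list (bars), with the number of genes in parentheses. The cell cycle members (green and purple) and all 7 other cell cycle lists (grey) have medians below 0, and the medians of cell type lists (ochre) run from -4.15 for NK cells to 1.68 for macrophages.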

How the data were processed

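Total RNA of 1 Z(-) and 1 Z(+) sample was amplified, labelled with Cy5 and read on a 1-colour oligonucleotide array, 2 technical arrays per sample. The authors deposited linear intensity values for 26423 probes, each the mean of both arrays of a sample; scanner, background method and normalization were not given in the sources used here. In the platform's annotation 21876 probes have 1 gene symbol, 0 have several and 4547 have none; the symbols of all 37 measured members were unchanged by gene ID in the RefSeq table of GRCm38.p6. Intensities under 1 were set to 1 and taken to log2, probes of a gene were averaged, and the difference was Z(+) minus Z(-), with no further scaling and no filter on dim genes.

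With 1 sample per fraction there was no test; sets were described by counts at 2-fold and medians beside those of all genes. Technical arrays were recovered as whole numbers times 2 factors per sample (0.990 and 1.01 in Z(-), 0.968 and 1.03 in Z(+)). The method was tested on simulated data whose arrays lay close together, so it was not tested on arrays that differ widely. The members and lists were chosen with earlier results of these data known. The rule for named genes took all members, up to 3 bright genes with the largest difference per cell cycle list and the first 2 markers per cell type. Alternatives were 3 scalings, the brightest probe, a pseudocount of 50, single technical arrays, a brightness filter, other thresholds and other phase borders. Tools were Python 3.11.15, matplotlib 3.10.9, statsmodels 0.14.6 (loess, span 0.3), scipy 1.17.1, pandas 2.3.3 and numpy 2.4.6.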

Additional observations from a re-analysis of the deposited data

How the results depend on the processing

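The count of 17 members at least 2-fold lower in Z(+) was 10 with a pseudocount of 50 and 16 to 18 over the 4 pairings of single technical arrays. At a threshold of 2 on the log2 scale (4-fold) it was 1. It was 16 with each sample centred on its median, 15 after quantile normalization, 17 after loess and 19 with the brightest probe of each gene. Over the brighter members alone it was 14. The count at least 2-fold higher was 0 under every alternative run. The pseudocount shrinks the differences of dim genes by construction. The median log2 difference of all members, -0.89, was -0.84 with each sample centred on its median, -0.83 after quantile normalization, -1.03 with the brightest probe of each gene, -0.76 with the pseudocount, -1.07 over the brighter members, and -0.94 to -0.88 over the array pairings. The G1/S median, -0.98, was -0.89 after quantile normalization, -0.85 with the pseudocount and -1.04 to -0.91 over the pairings. The G2/M median, -0.76, was -0.72 centred, -0.71 after quantile normalization, -0.80 after loess, -1.08 with the brightest probe, -0.65 with the pseudocount, -1.16 over the brighter members, -0.65 without Ccna2, Cdk1 and Top2a, which also act in S phase, and -0.83 to -0.75 over the pairings. The G1/S minus the G2/M median, -0.21, turned to 0.11 with the brightest probe and to 0.18 over the brighter members; it was -0.33 without those 3 genes and -0.24 to -0.077 over the pairings. The cause of these turns was not tested. Over 9 alternatives, 34 of 37 members kept their sign, and the exceptions were Ccne2, Mki67 and Cdk1; 10 of the 17 at least 2-fold lower stayed so, Birc5, Ccnb2, Ccne1, Cdc6, Mcm2, Plk1 and Ttk being the others. The 3 scalings moved the median of all genes from 0.03 to at most 0.08. No paired analysis was possible because each fraction has 1 sample. The deposited values come with no background signal, so no probe could be called detected, and the number of arrays limits the precision.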

Other observations

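A few cell cycle genes of the lists went against the rest; they were chosen after their values were seen. Rb1, the retinoblastoma protein that holds E2F back, read 2065 in Z(-) against 3623 in Z(+) in intensity units, 1.75-fold higher in Z(+). Its relatives Rbl1 and Rbl2 had 744 in Z(-) against 824 in Z(+) and 989 in Z(-) against 1003 in Z(+). Cdk6, a kinase partner of cyclins D, was 2.31-fold higher at 78.5 in Z(-) against 181 in Z(+), from 1 probe that was dim in Z(-). Lbr, a receptor of the inner nuclear membrane that is also linked to nuclear shape in granulocytes, had 719.9 in Z(-) against 1438 in Z(+). Usp1, a deubiquitinase that acts on PCNA, had 682 in Z(-) against 1150.0 in Z(+). Each value rests on 1 sample per fraction and carries no test.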
